A study of Mus musculus with 8 samples.

Results

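Grb10, its paralogues Grb7 and Grb14, the receptors Insr and Igf1r, the receptor substrates Irs1, Irs2 and Irs4, the ligand Igf1 and the binding protein Igfbp5 were followed across 8 RNA-seq libraries of mouse embryoid bodies. These are 10 of the 53680 gene names in the deposited table, and they fill 11 rows because Irs1 has 2. Grb10 was picked for its near complete loss in the Prdm16 knockout only, so its levels are given as a description with no test. The other 9 were taken for their place in the same signalling chain.

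Embryoid bodies are aggregates in which embryonic stem cells differentiate into many cell types, and all libraries came from day 9 of this culture on a C57BL/6 strain background. The 4 groups held 2 libraries each: a Prdm16 knockout (genotype PRDM16 KO), the wild type that its sample titles pair with it (here the Prdm16 control), a knockout of the PR domain of the same protein (genotype PR domain KO, titled after exon 4), and a second wild type titled in the same way (the PR domain control). Nothing in the labels tells whether replicates were separate cultures, so a p-value here speaks of the spread among libraries alone, and that spread may be technical. Nothing tells either whether a knockout and its wild type are 1 clone or line each, so genotype and clone cannot be told apart.

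Insulin and the insulin-like growth factors bind the receptor tyrosine kinases Insr and Igf1r, which phosphorylate the Irs docking proteins and through them switch on PI3K, AKT and mTORC1. Grb10, Grb7 and Grb14 are a family of adaptors with an SH2 domain, and Grb10 and Grb14 bind the activated receptors and restrain them. Grb10 is imprinted: most tissues of the mouse use the maternal copy, neurons the paternal one, and mice without the maternal copy are overgrown.

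The windows before the 2 starts of Grb10 listed by RefSeq (GRCm38.p6) are shown first, because the gene is read from more than 1 start and a locus total sums over all of them. Each runs 5′ to 3′ on the minus strand and ends just before the start, with CG dinucleotides in capitals.
Grb10, upstream start, chr11:12037421-12037670: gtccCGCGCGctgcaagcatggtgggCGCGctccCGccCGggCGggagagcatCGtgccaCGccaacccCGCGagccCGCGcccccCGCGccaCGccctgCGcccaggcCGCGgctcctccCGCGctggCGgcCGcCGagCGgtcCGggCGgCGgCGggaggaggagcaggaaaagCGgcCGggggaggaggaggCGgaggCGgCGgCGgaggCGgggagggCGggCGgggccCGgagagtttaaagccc
Grb10, downstream start, chr11:12027972-12028221: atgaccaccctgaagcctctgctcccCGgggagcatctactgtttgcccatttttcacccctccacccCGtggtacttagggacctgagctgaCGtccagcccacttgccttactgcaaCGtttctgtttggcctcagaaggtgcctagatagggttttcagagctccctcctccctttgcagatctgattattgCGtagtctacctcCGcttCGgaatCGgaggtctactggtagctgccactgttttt
The upstream window held 40 CG dinucleotides in 250 bases, more than 98.7% of the 32851 RefSeq promoter windows of the same length, whose median was 6. The downstream window held 8. The deposited locus totals do not show from which start the fragments came.

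The windows of the 3 substrate genes are shown because they share letters that few promoters hold. Capitals mark TCACGTG, an extended E-box, and TGTTTTG, a variant of the insulin response element to which FOXO factors bind.
Irs1, chr1:82291440-82291689: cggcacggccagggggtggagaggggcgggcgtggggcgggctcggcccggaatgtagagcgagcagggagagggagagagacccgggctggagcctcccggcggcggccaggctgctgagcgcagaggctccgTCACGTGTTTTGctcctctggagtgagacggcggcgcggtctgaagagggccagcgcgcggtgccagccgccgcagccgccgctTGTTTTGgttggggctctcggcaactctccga
Irs2, chr8:11008930-11009179: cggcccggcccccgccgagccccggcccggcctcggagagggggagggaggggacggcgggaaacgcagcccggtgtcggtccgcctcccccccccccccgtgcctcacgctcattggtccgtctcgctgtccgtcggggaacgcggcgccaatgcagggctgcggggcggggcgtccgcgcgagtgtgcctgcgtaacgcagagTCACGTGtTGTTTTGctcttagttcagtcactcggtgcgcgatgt
Irs4, chrX:141725264-141725467: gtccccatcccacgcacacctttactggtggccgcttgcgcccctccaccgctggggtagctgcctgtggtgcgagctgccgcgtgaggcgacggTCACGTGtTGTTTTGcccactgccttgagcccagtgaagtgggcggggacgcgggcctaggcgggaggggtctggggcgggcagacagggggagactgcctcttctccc
All 3 lie on the minus strand. In Irs2 and Irs4 the matches stand 1 base apart, and the longest run the 2 windows share is GTCACGTGTTGTTTTGC. It was found in 2 of 32851 windows, 0.00609%, which are the same 2 windows it was taken from. In Irs1 the E-box and the first TGTTTTG overlap, and a second TGTTTTG lies nearer the start. Searched on both strands, TCACGTG was in 3.13% of the windows, TGTTTTG in 5.56% and both in 0.152%. The FOXO core GTAAACA, in 3.17% of all windows, was in none of those found for 8 of the 10 genes (Grb7 and Insr had no entry). The letters to search for, other than GTAAACA, were chosen after these sequences had been read, and a match is a description of letters only.

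The libraries held 6273789 to 9086885 fragments on named loci. Levels below are fragments per locus divided by 1 size factor per library (normalised fragments), and differences are on the log2(level + 1) scale ± SE from a limma fit to 16623 loci, with p-values adjusted over all of them (Benjamini-Hochberg) and a threshold of 0.05. Prdm16 itself fell from 24.4 and 26.3 normalised fragments to 11.2 and 1.10 with its own knockout, and its 2 PR domain control values were 44.6 and 22.7, against 23.3 and 15.7 with the PR domain knocked out. It passed with Prdm16 knocked out (-2.38 on the log2 scale, limma adjusted p = 0.000306) and not in the PR domain knockout (-0.71, adjusted p = 0.377). Both Prdm16 knockout libraries stood apart in the 4 Y-linked genes examined (Ddx3y, Uty, Kdm5d, Eif2s3y), which summed to 0 and 1.10 there, 1246 to 1323 in their control and 2750 to 3167 in the other 4 libraries. Xist was at 2.48 to 8.46 in all 8. Since both knockout libraries lack these transcripts, none of the Prdm16 knockout results can be given without such libraries. Markers of visceral endoderm, mesenchyme, blood, heart and endothelium were present in all groups, while skeletal muscle markers summed to 9.29 at most, with Myf5 at 0, and the adipocyte genes Adipoq and Lep were at 0. The wild types also differed from each other: 33.0% of the loci tested passed between them.

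Grb10 (ENSMUSG00000020176.17, protein-coding, chr11:11930508-12038683, minus strand, GRCm38 as annotated in GENCODE M21) was among the most abundant genes of the set in 3 groups and among the least abundant in the fourth. It stood at 3869 and 4130 normalised fragments in the Prdm16 control and at 44.7 and 28.6 in the Prdm16 knockout. It stood at 1400 and 1408 in the PR domain control and at 2184 and 2068 in the PR domain knockout. No group overlapped another, the Prdm16 knockout was far below the rest, and the PR domain knockout was above its own control.

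The Prdm16 knockout held 0.916% of its control's level (exact 95% interval 0.702 to 1.18%, from 62 against 8040 fragments, counting error only), a log2 difference of -6.76. In the PR domain knockout Grb10 stood at 151% of its control (145 to 159%), a log2 difference of 0.60. The PR domain control held 35.1% of the Prdm16 control (33.6 to 36.7%), a log2 difference of -1.51. These contrasts chose the gene, and the intervals only describe the depth behind the values. On FPKM, the authors' length-scaled unit, Grb10 stood at 134 and 155 in the Prdm16 control and 3.18 and 1.40 in the knockout, and the log2(FPKM + 1) differences in the same order were -5.52, 0.79 and -1.66.

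Among loci with a single protein-coding name, the Grb10 difference of -6.76 in the Prdm16 knockout was the fourth lowest. Lower still were the Y-linked Ddx3y (-8.97), Eif2s3y (-8.46) and Uty (-7.64). Just above came Y-linked Kdm5d (-6.22), the sclerotome factor gene Pax1 (-5.76) and Cer1 (-5.49), which encodes a secreted antagonist of Nodal and BMP.

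Markers of the sclerotome and dermomyotome, compartments of the somite, were also low in that knockout. Of 6, 4 were tested and 3 fell (Pax1, Pax9 and Ebf2), where 21.1% of all loci fell. The 6 summed to 362 to 372 in the control and 37.2 to 44.0 in the knockout. Pax1, named above for its large fall (means 170 and 2.41), is part of this count and sum. Markers of neural progenitors (5 of 6 tested), neurons (4 of 5), cardiomyocytes (4 of 6), endothelium (4 of 6, 2 rose) and pluripotent cells (2 of 3) fell there too. Those of macrophages (6 of 6), visceral endoderm (5 of 6), mesenchyme (4 of 6) and erythroid cells (4 of 6) rose, against 18.0% of all loci. In the PR domain knockout, where Grb10 was above its control, 2 of the 4 tested sclerotome and dermomyotome markers fell, against 10.7% of all loci. The 6 summed to 188 to 209 there, against 513 to 586 in its control. The part of any of these cell types in the Grb10 values was not tested. In whole embryoid bodies fewer cells of a type and less RNA per cell cannot be told apart.

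**Figure D1:**
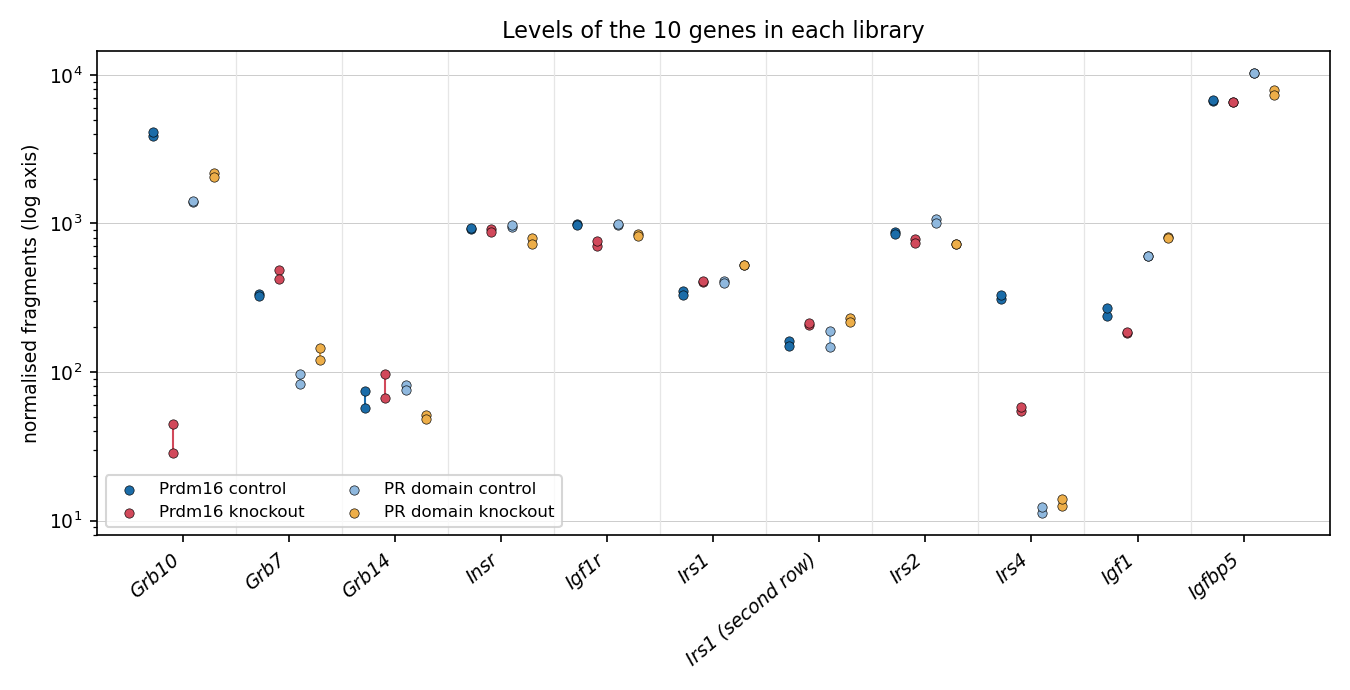
Normalised fragments (log axis) of the 10 genes, with both Irs1 rows, in each of the 8 libraries; each point is 1 library, and the vertical line joins the 2 libraries of a group. Grb10 spans 28.6 to 4130, Irs4 11.2 to 327, while Insr and Igf1r stay between 708 and 997.

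Per kilobase of annotated exon, Igfbp5 had the highest level in every group, at 1117 and 1099 normalised fragments per kilobase in the control and knockout of the Prdm16 set, and 1714 and 1269 in the control and knockout of the PR domain set. Grb10 came second in the Prdm16 control (440 ± 20.3, SD, n = 2) and last of 10 in the Prdm16 knockout (4.03 ± 1.2). It was the third in the PR domain control (154 ± 0.643), behind Irs2 (164 ± 7.80), and second in the PR domain knockout (234 ± 9.08). Irs4 was seventh in the Prdm16 control (50.7 ± 1.87), ninth in the Prdm16 knockout (8.97 ± 0.418) and last in both other groups. Neighbours in the order whose gap was smaller than the sum of their SDs were Grb7 and Irs2, Irs1 and Igf1r, and Grb14 and Irs4 in the Prdm16 knockout, and Irs1 and Insr in the PR domain knockout.

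Of the 9 genes other than Grb10, all of which were tested, 2 rose (Grb7, Irs1) and 4 fell (Igf1r, Irs2, Irs4, Igf1) in the Prdm16 knockout. Of all loci, 39.1% passed there, 18.0% higher and 21.1% lower. The median difference of the 9 was -0.06, against -0.03 over all loci. In the PR domain knockout 3 rose (Grb7, Irs1, Igf1) and 5 fell (Grb14, Insr, Igf1r, Irs2, Igfbp5), with a median of -0.24 against -0.03. There 19.2% of all loci passed, 8.48% higher and 10.7% lower. The difference between the knockout effects passed for 6 of the 9, with 4 positive and 2 negative, against 16.4% of all loci, 8.6% positive and 7.81% negative. The wild types differed from each other at 6 of the 9, against 33.0% of all loci, 16.3% higher and 16.7% lower in the PR domain control. With FPKM in place of fragments 2 of the 9 passed in the Prdm16 knockout (Irs4, Igf1) and 3 in the PR domain knockout (Irs2, Igf1, Igfbp5), with 2 for the difference (Irs4, Igf1). Of the 16623 loci, 2244, 582 and 199 passed on FPKM in the same order, against 6502, 3190 and 2728 on fragments. The comparisons share control libraries, so their values are given side by side and not correlated.

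**Figure D2:**
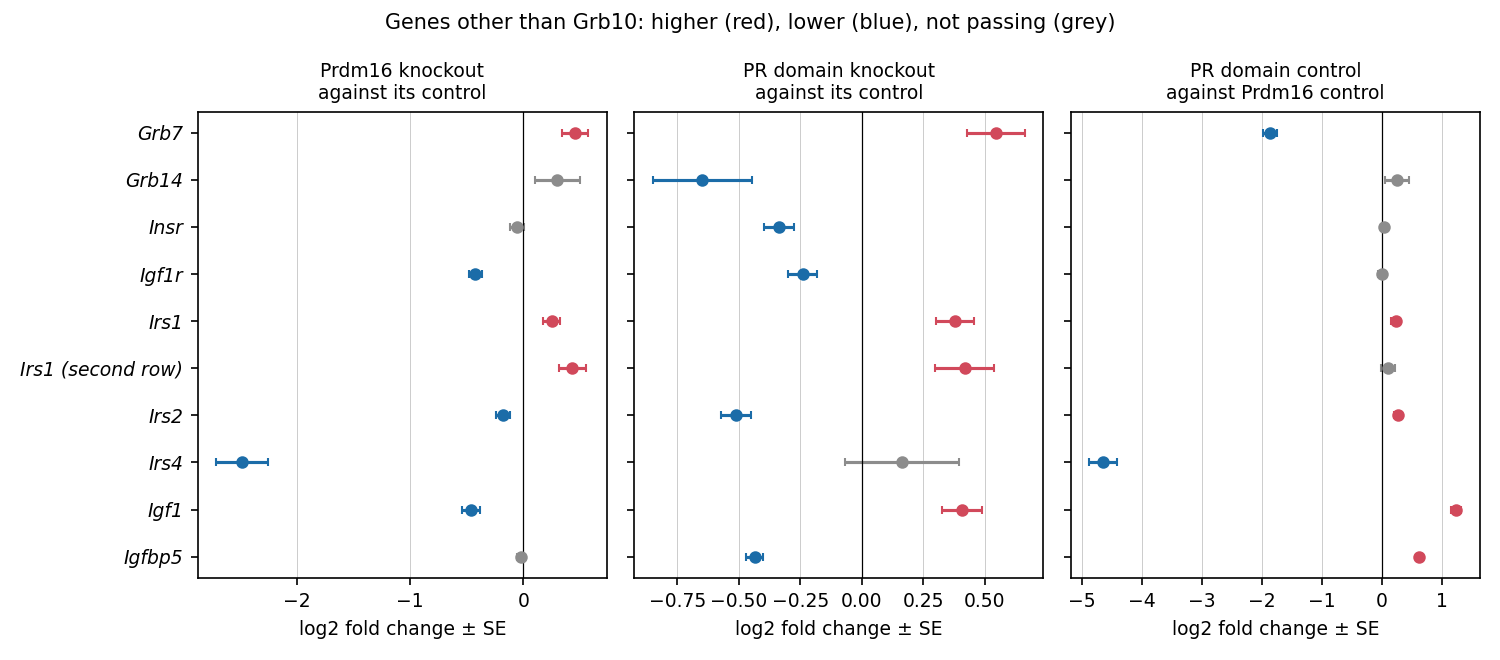
Log2 fold change (points) ± SE (bars) of the genes other than Grb10 in 3 comparisons, red for those that rose, blue for those that fell and grey for those that did not pass; each panel has its own scale. Irs4 is lowest in the Prdm16 knockout (-2.48) and between the wild types (-4.65), while Grb14 is lowest in the PR domain knockout (-0.65).

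Grb7 (chr11:98446394-98455373, plus strand), the paralogue best known as a partner of ERBB2, rose in both knockouts. It had levels of 335 and 325 in the Prdm16 control and 488 and 420 in the Prdm16 knockout. It had 83.2 and 97.0 in the PR domain control and 120 and 144 in the PR domain knockout. Both knockout libraries were above both of their own controls, and all 4 Prdm16 set libraries were above all 4 of the PR domain set. The change was 0.45 ± 0.12 with Prdm16 knocked out (limma adjusted p = 0.00245) and 0.55 ± 0.12 in the PR domain knockout (adjusted p = 0.000831), and the 2 did not differ by the test (-0.09 ± 0.17, adjusted p = 0.771). Without Prdm16 knockout replicate 1 the first was 0.35 (adjusted p = 0.0680), and on FPKM the second was -0.04. Between the wild types the PR domain control was lower by 1.87 (log2 change -1.87 ± 0.12, adjusted p = 5.52e-14).

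Grb14 (chr2:64912476-65024987, minus strand), an inhibitor of the insulin receptor, was the lowest of the 3 paralogues in the Prdm16 control. Its levels were 74.2 and 57.4 in the Prdm16 control, 67.0 and 96.8 in its knockout, 81.1 and 75.3 in the control of the PR domain set and 51.1 and 48.0 in the PR domain knockout. The Prdm16 knockout overlapped its control, and the PR domain knockout lay below its own. The changes were 0.30 ± 0.20 (adjusted p = 0.248) and -0.65 ± 0.20 (adjusted p = 0.0201), and they differed by 0.95 ± 0.28 (limma adjusted p = 0.0197). The fall in the PR domain knockout lost its call without any 1 of the 4 PR domain libraries (adjusted p = 0.0639 to 0.130) and with DESeq2 (adjusted p = 0.177). The difference lost its call without replicate 2 of the Prdm16 control, the Prdm16 knockout or the PR domain knockout and without PR domain control replicate 1 (adjusted p = 0.0645 to 0.139), and with DESeq2 (adjusted p = 0.123). With no filter on low values neither passed (adjusted p = 0.0877 and 0.0886).

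Insr (chr8:3122061-3279617, minus strand), the insulin receptor, and Igf1r (chr7:67952827-68233668, plus strand), the receptor for IGF1 and IGF2, stood at like levels in both wild types. Insr had levels of 920 and 937 in the Prdm16 control, 911 and 877 in its knockout, 943 and 970 in the control of the PR domain set and 793 and 725 in the PR domain knockout. Igf1r had 992 and 981, 708 and 765, 973 and 997, and 842 and 826 in the same order. The wild types overlapped for Igf1r, the PR domain knockout was the lowest group for Insr, and the Prdm16 knockout was the lowest for Igf1r.

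Igf1r fell in both knockouts, by 0.42 ± 0.06 in the Prdm16 knockout (log2 change -0.42, limma adjusted p = 1.00e-06) and by 0.24 ± 0.06 in the PR domain knockout (log2 change -0.24, adjusted p = 0.00344). Without PR domain control replicate 2 the second was -0.22 (adjusted p = 0.0538), and with DESeq2 it was -0.20 (adjusted p = 0.0882). Insr fell in the PR domain knockout (-0.34 ± 0.06, adjusted p = 9.57e-05) and did not pass in the Prdm16 knockout (-0.06 ± 0.06, adjusted p = 0.499). The difference between the 2 Insr effects passed, at 0.28 ± 0.09 (adjusted p = 0.0217). It lost its call without replicate 1 of the Prdm16 control or knockout and without replicate 2 of the PR domain control or knockout (adjusted p = 0.0716 to 0.108), with total-fragment scaling or no filter on low values (adjusted p = 0.0710 and 0.0712), and with DESeq2 (adjusted p = 0.134).

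The Irs genes encode the docking proteins that Insr and Igf1r phosphorylate, and Irs4 is the member with the narrowest tissue range. Irs4 (chrX:141710998-141725263, minus strand) had levels of 311 and 327 in the Prdm16 control and 54.6 and 58.3 in the Prdm16 knockout. It had 11.2 and 12.4 in the PR domain control and 12.6 and 14.1 in the PR domain knockout. The Prdm16 control was far above every other library, and the PR domain set was low in both genotypes. The fall in the Prdm16 knockout was 5.65-fold (log2 change -2.48 ± 0.23, limma adjusted p = 4.63e-10), and no change passed in the PR domain knockout (0.16 ± 0.23, adjusted p = 0.700). The effects differed (-2.64 ± 0.33, adjusted p = 5.32e-07), and the PR domain control was 27.1-fold below the Prdm16 control (-4.65 ± 0.23, adjusted p = 1.60e-16). An antisense gene, Gm15295, overlaps the start of Irs4, and the strand setting of the counting was not given in the sources used here.

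Irs2 (chr8:10984681-11008458, minus strand), the substrate most tied to insulin action in liver and beta cells, had levels of 873 and 855 in the Prdm16 control and 782 and 744 in the Prdm16 knockout. It had 1074 and 1004 in the PR domain control and 729 and 727 in the PR domain knockout. Each knockout lay below its control. It fell in the PR domain knockout (-0.51 ± 0.06, limma adjusted p = 1.14e-07). The fall in the Prdm16 knockout (-0.18 ± 0.06, adjusted p = 0.0177) rests on the scaling: with TMM it was -0.13 (adjusted p = 0.0862), and it also lost its call with DESeq2 size factors, with edgeR, and without Prdm16 control replicate 1 or Prdm16 knockout replicate 2. The effects differed by 0.33 ± 0.09 (adjusted p = 0.00647, 0.0577 with DESeq2 and 0.0600 without PR domain control replicate 1), and the PR domain control was above the Prdm16 control (0.27 ± 0.06, adjusted p = 0.000830).

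Irs1 (chr1:82233101-82291416, minus strand), the first substrate to be described and prominent in muscle and fat, rose where Irs2 fell. Its main row had levels of 353 and 332 in the Prdm16 control, 403 and 410 in its knockout, 409 and 396 in the control of the PR domain set and 526 and 522 in the PR domain knockout. Each knockout lay above its control. The changes were 0.25 ± 0.08 (limma adjusted p = 0.0110) and 0.38 ± 0.08 (adjusted p = 0.000459), with no difference that passed between them (adjusted p = 0.467). The first lost its call without replicate 2 of the Prdm16 control (adjusted p = 0.0996) or of the Prdm16 knockout (adjusted p = 0.0566), and with DESeq2 (adjusted p = 0.0601).

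The second Irs1 row was lower, at 161 and 150, 206 and 215, 148 and 189, and 230 and 218 normalised fragments in the same order of groups. It gave 0.43 ± 0.12 (limma adjusted p = 0.00473) and 0.42 ± 0.12 (adjusted p = 0.0116). The first lost its call without Prdm16 control replicate 2 (adjusted p = 0.0512). The second lost it without replicate 1 of the PR domain control (0.24, adjusted p = 0.290) or of the PR domain knockout (adjusted p = 0.0983), and with DESeq2 (adjusted p = 0.0675). The files do not place either row on the genome, and an antisense gene, Gm9747, overlaps the end of Irs1. Between the wild types the main row differed by 0.23 ± 0.08 (adjusted p = 0.0197), which was lost without Prdm16 control replicate 2 or either PR domain control library (adjusted p = 0.0559 to 0.147) and with DESeq2 (adjusted p = 0.128).

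Igf1 (chr10:87858265-87937042, plus strand), the growth factor that binds Igf1r, changed in opposite directions in the 2 knockouts. It had levels of 240 and 270 in the Prdm16 control and 184 and 185 in the Prdm16 knockout. It had 603 and 604 in the PR domain control and 810 and 792 in the PR domain knockout. The groups did not overlap, and the Prdm16 set was below the PR domain set throughout. Igf1 fell with Prdm16 knocked out (-0.46 ± 0.08, limma adjusted p = 3.23e-05) and rose in the PR domain knockout (0.41 ± 0.08, adjusted p = 0.000372). The effects differed by -0.87 ± 0.12 (adjusted p = 1.78e-06), and the PR domain control was 2.37-fold above the Prdm16 control (1.24 ± 0.08, adjusted p = 1.51e-13). Macrophages are a known source of Igf1. All 6 macrophage markers rose in both knockouts, where 18.0% and 8.48% of all loci rose. These markers summed to 1386 to 1470 and 2985 to 3092 in the Prdm16 set's control and knockout, and 3700 to 3863 and 7053 to 7131 in the PR domain set. Their part in the Igf1 values was not tested.

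Igfbp5 (chr1:72857932-72874884, minus strand), which binds IGFs outside the cell, had levels of 6646 and 6766 in the Prdm16 control and 6609 and 6590 in the Prdm16 knockout. It had 10327 and 10261 in the PR domain control and 7898 and 7344 in the PR domain knockout. The 4 libraries of the Prdm16 set lay close together, and the PR domain control was the highest group. Igfbp5 fell in the PR domain knockout (-0.43 ± 0.03, limma adjusted p = 4.98e-11) and did not pass in the Prdm16 knockout (-0.02 ± 0.03, adjusted p = 0.640). The effects differed by 0.41 ± 0.05 (adjusted p = 3.15e-07), and the PR domain control was above the Prdm16 control (0.62 ± 0.03, adjusted p = 4.03e-15).

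Over the rest of the pathway, 129 listed genes were found and 120 were tested. In the Prdm16 knockout 36 rose and 33 fell, against 39.1% of all loci called, with a median of -0.02 against -0.03. In the PR domain knockout 19 rose and 16 fell, against 19.2% of all loci, with a median of -0.01 against -0.03. Without PR domain control replicate 1 these 35 were 23. On FPKM 19 and 5 of the pathway genes passed in the 2 knockouts, and 23 in the second with DESeq2. Over all loci these settings called 2244 and 582, and 1797, against 6502 and 3190 in the main fit. The difference between the knockouts passed for 36, against 16.4% of all loci, and the wild types differed at 56, against 33.0%. Without replicate 2 of the Prdm16 control or of the Prdm16 knockout the 36 were 24.

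**Figure D3:**
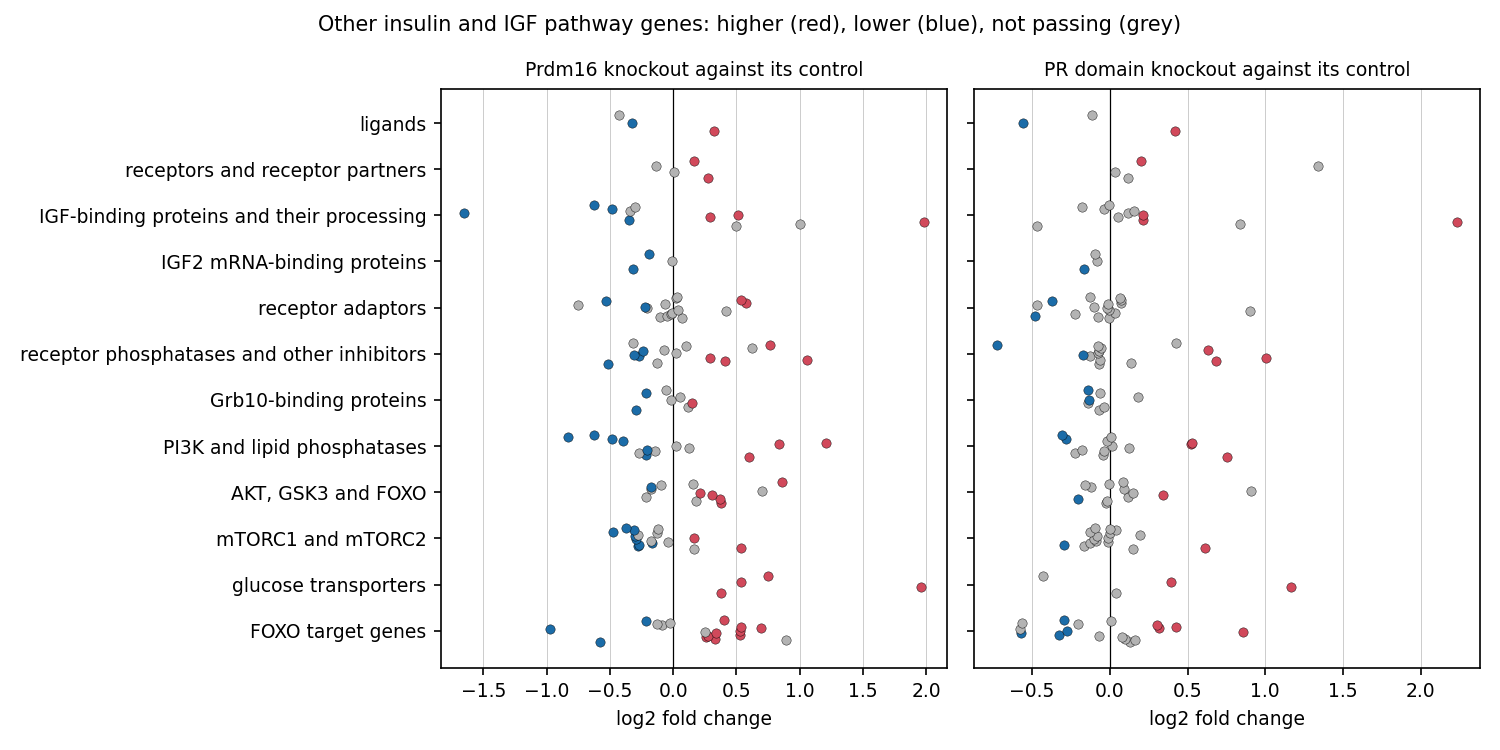
Log2 fold change of the other insulin and IGF pathway genes that were tested, by role, in each knockout against its control; each point is 1 gene, red for those that rose, blue for those that fell and grey for those that did not pass. The 4 glucose transporters are all red in the Prdm16 knockout, and Igfbp1 is the point farthest to the right in both panels (1.98 and 2.23).

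Among the ligands, Igf2, the fetal growth factor imprinted in the opposite parental sense to Grb10, was the most abundant. Its row, shared with the model Gm49394, had levels of 29621 and 30160 in the Prdm16 control and 37777 and 36997 in the Prdm16 knockout. It had 24730 and 24542 in the PR domain control and 32961 and 32893 in the PR domain knockout. Both knockouts lay above both wild types. Igf2 rose by 0.32 ± 0.03 (limma adjusted p = 1.37e-11) and 0.42 ± 0.03 (adjusted p = 9.10e-14), and the PR domain control was below the Prdm16 control (-0.28 ± 0.03, adjusted p = 2.86e-10, and 0.0543 on FPKM). Ins1 was at 0 in all libraries. Igf2r, the imprinted receptor that clears IGF2, did not pass in either knockout (0.01 ± 0.04, adjusted p = 0.902, and 0.03 ± 0.04, adjusted p = 0.591).

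Of 11 tested IGF-binding proteins and their processing factors, 3 rose and 4 fell in the Prdm16 knockout, and 3 rose and 0 fell in the PR domain knockout, against 39.1% and 19.2% of all loci called. Igfbp1, a binding protein made in liver and decidua and repressed by insulin, had levels of 126 and 115 in the Prdm16 control and 453 and 503 in the Prdm16 knockout. It had 7.10 and 1.03 in the PR domain control and 19.7 and 16.5 in the PR domain knockout. Igfbp1 rose in both (1.98 ± 0.34, limma adjusted p = 2.63e-05, and 2.23 ± 0.34, adjusted p = 9.82e-06), the second not passing on FPKM (0.93, adjusted p = 0.0600). Of 6 visceral endoderm and liver markers, 5 and 6 rose in the 2 knockouts, where 18.0% and 8.48% of all loci rose. These markers summed to 29308 to 30892 and 60849 to 61505 in the Prdm16 set's control and knockout. In the PR domain control and knockout they summed to 4106 to 4246 and 7516 to 7585. Their part in the Igfbp1 values was not tested. Igfbp2 fell in the Prdm16 knockout (-0.35 ± 0.05, adjusted p = 4.94e-06), and its effects differed between the knockouts (-0.57 ± 0.08, adjusted p = 2.75e-06, and 0.0733 on FPKM). In the PR domain knockout Igfbp2 rose, a call lost with no filter on low values (0.21, limma adjusted p = 0.0571) and on FPKM (0.21, adjusted p = 0.237). Igfbp4 rose in the Prdm16 knockout (0.51 ± 0.04, adjusted p = 8.51e-12). It passed as higher in the PR domain knockout too, by less, and the difference between its effects passed.

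Among 7 listed proteins that bind Grb10, Gigyf1 and Gigyf2 (named for this binding) and Nedd4, the ubiquitin ligase that acts with Grb10 on Igf1r, were examined whatever their values. Gigyf1, whose row is shared with Gm8066, fell in the Prdm16 knockout (-0.29 ± 0.08, limma adjusted p = 0.00233), a call lost with DESeq2 (-0.25, adjusted p = 0.0755) and on FPKM (adjusted p = 0.284). Gigyf2 did not pass in the same fit (0.11 ± 0.05, adjusted p = 0.0941), though it did with TMM scaling (0.16, adjusted p = 0.0152). Nedd4, whose row is shared with Gm36936, stood at -0.01 ± 0.03 in the Prdm16 knockout (adjusted p = 0.736) and fell in the PR domain knockout (-0.13 ± 0.03, adjusted p = 0.000956), which did not pass with DESeq2 (-0.10, adjusted p = 0.0640) or on FPKM (adjusted p = 0.358).

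Of 14 receptor phosphatases and other inhibitors, 4 rose and 4 fell in the Prdm16 knockout and 3 rose and 2 fell in the PR domain knockout, against 39.1% and 19.2% of all loci called. Socs3, which blocks Insr and cytokine receptors, had levels of 366 and 393 in the Prdm16 control, 627 and 661 in its knockout, 1132 and 1147 in the control of the PR domain set and 648 and 732 in the PR domain knockout. Socs3 rose in the first (0.76 ± 0.07, limma adjusted p = 3.12e-10) and fell in the second (-0.73 ± 0.07, adjusted p = 2.17e-09), a difference of 1.49 ± 0.10 (adjusted p = 9.62e-13). On FPKM neither the fall nor the difference passed (adjusted p = 0.323 and 0.114). Enpp1, a membrane protein that inhibits Insr, rose in the PR domain knockout (1.00 ± 0.11, adjusted p = 4.55e-08). It passed as higher in the Prdm16 knockout too, by less, and the difference between the effects passed. Cbl, a ubiquitin ligase for receptors, fell in the Prdm16 knockout (-0.52 ± 0.07, adjusted p = 2.11e-07, and 0.476 on FPKM). Among the adaptors Gab1, a docking protein, fell in the PR domain knockout (-0.48 ± 0.07, adjusted p = 2.59e-06, and 0.121 on FPKM).

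Downstream, 3 of 13 genes of PI3K and the lipid phosphatases rose and 6 fell in the Prdm16 knockout, against 39.1% of all loci called. Pik3r3, a regulatory subunit whose row is shared with 1700042G07Rik and Gm49337, fell there (-0.83 ± 0.09, limma adjusted p = 8.98e-09), and its effects differed between the knockouts (-0.84 ± 0.13, adjusted p = 1.42e-05). The 3 that rose, Pik3cd, Pik3cg and Inpp5d, are best known from blood cells, and the macrophage markers given with Igf1 moved with them. The part of macrophages in the values of these 3 genes was not tested. The same 3 rose in the PR domain knockout. There Pik3cd lost its call without PR domain control replicate 1 (adjusted p = 0.0716) or PR domain knockout replicate 2 (adjusted p = 0.0636), and Pik3cg without those or PR domain control replicate 2 (adjusted p = 0.0831 to 0.304). On FPKM none of the 3 passed in either knockout (Inpp5d adjusted p = 0.0838 and 0.261), nor did the Pik3r3 difference (adjusted p = 0.0748).

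Of 12 genes of AKT, GSK3 and FOXO, 5 rose and 1 fell in the Prdm16 knockout, among them Akt1 (0.38 ± 0.05, limma adjusted p = 7.57e-08), and 1 rose and 1 fell in the PR domain knockout. Of 16 genes of the mTOR complexes, their regulators and targets, 2 rose and 8 fell in the Prdm16 knockout, among them the kinase Mtor (-0.29 ± 0.06, adjusted p = 0.000519, and 0.130 on FPKM), and 1 rose and 1 fell in the PR domain knockout. Over all loci 18.0% rose and 21.1% fell in the Prdm16 knockout, and 8.48% and 10.7% in the PR domain knockout. The list medians in the Prdm16 knockout were 0.20 and -0.22, against -0.03 over all loci.

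All 4 glucose transporters rose in the Prdm16 knockout, where 18.0% of all loci rose. Slc2a3, the high-affinity transporter of embryo and neurons, went from 15947 and 15860 normalised fragments to 23159 and 22910 (0.53 ± 0.03, limma adjusted p = 2.09e-14), and from 3442 and 3387 to 4504 and 4472 in the PR domain knockout (0.39 ± 0.03, adjusted p = 4.09e-11). The PR domain set was below the Prdm16 set in all libraries (-2.22 ± 0.03 between the wild types, adjusted p = 1.61e-30). Slc2a1 (0.38 ± 0.04, adjusted p = 1.61e-08) and Slc2a2, the transporter of liver and yolk sac (1.96 ± 0.42, adjusted p = 0.000355), rose in the Prdm16 knockout as well. Slc2a4, the transporter that insulin moves to the surface of muscle and fat, rose by 0.75 ± 0.24 (adjusted p = 0.0140), and lost its call without replicate 2 of the Prdm16 control (0.47, adjusted p = 0.213) or knockout (0.46, adjusted p = 0.227), and with DESeq2 (adjusted p = 0.0783), no filter (adjusted p = 0.0697) or FPKM (0.18, adjusted p = 0.650).

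Of 17 tested FOXO target genes, 9 rose and 3 fell in the Prdm16 knockout, with a median of 0.28 against -0.03 over all loci, of which 39.1% were called. In the PR domain knockout 4 rose and 4 fell, with a median of 0.01 and 19.2% of all loci called. Klf6, Txnip, Cited2 and Fbxo32 rose in the first and fell in the second. Txnip, an inhibitor of thioredoxin and glucose uptake, had levels of 2569 and 2512 in the Prdm16 control, 3395 and 3326 in its knockout, 3707 and 3610 in the control of the PR domain set and 2936 and 3031 in the PR domain knockout. Its effects were 0.40 ± 0.04 (limma adjusted p = 2.05e-09) and -0.29 ± 0.04 (adjusted p = 1.62e-06), a difference of 0.70 ± 0.06 (adjusted p = 1.40e-10). For Klf6, a zinc finger factor, the difference was 0.80 ± 0.06 (adjusted p = 9.87e-12) and for Cited2, a transcriptional cofactor, 0.85 ± 0.10 (adjusted p = 2.19e-07). On FPKM Klf6 passed in neither knockout (adjusted p = 0.0600 and 0.138), the fall of Cited2 did not pass (adjusted p = 0.0995), and both differences lost their calls (adjusted p = 0.0837 for Klf6 and 0.0569 for Cited2).

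The protein-coding neighbours within 500 kb of Grb10 on chromosome 11 were examined next. The nearest, Ddc (aromatic amino acid decarboxylase, 32.4 kb away and imprinted with Grb10 in heart), had levels of 222 and 194 in the Prdm16 control and 277 and 283 in the Prdm16 knockout. It had 222 and 236 in the PR domain control and 278 and 276 in the PR domain knockout. Both knockouts were above both wild types. Ddc rose with Prdm16 knocked out (0.43 ± 0.10, limma adjusted p = 0.000888, but 0.21 and adjusted p = 0.459 on FPKM) and did not pass in the PR domain knockout (0.27 ± 0.10, adjusted p = 0.0531).

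Cobl, on the other side of Grb10 (198 kb away), did not pass in either knockout (0.16 ± 0.19, limma adjusted p = 0.542, and 0.38 ± 0.19, adjusted p = 0.198), nor did Fignl1, on the side of Ddc (122 kb; 0.07 ± 0.07, adjusted p = 0.459, and -0.17 ± 0.07, adjusted p = 0.125). Ikzf1 (158 kb, also on that side), a lymphoid and myeloid factor, rose in both (0.74 ± 0.18, adjusted p = 0.00144, and 0.96 ± 0.18, adjusted p = 0.000182). The first was 0.52 without Prdm16 control replicate 2 (adjusted p = 0.0553), and on FPKM neither passed (0.13 and 0.63). The macrophage markers moved with it, and their part in the Ikzf1 values was not tested. Zpbp (468 kb) was tested at low levels and did not pass, while Spata48 and 4930512M02Rik were too low to test.

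**Figure D4:**
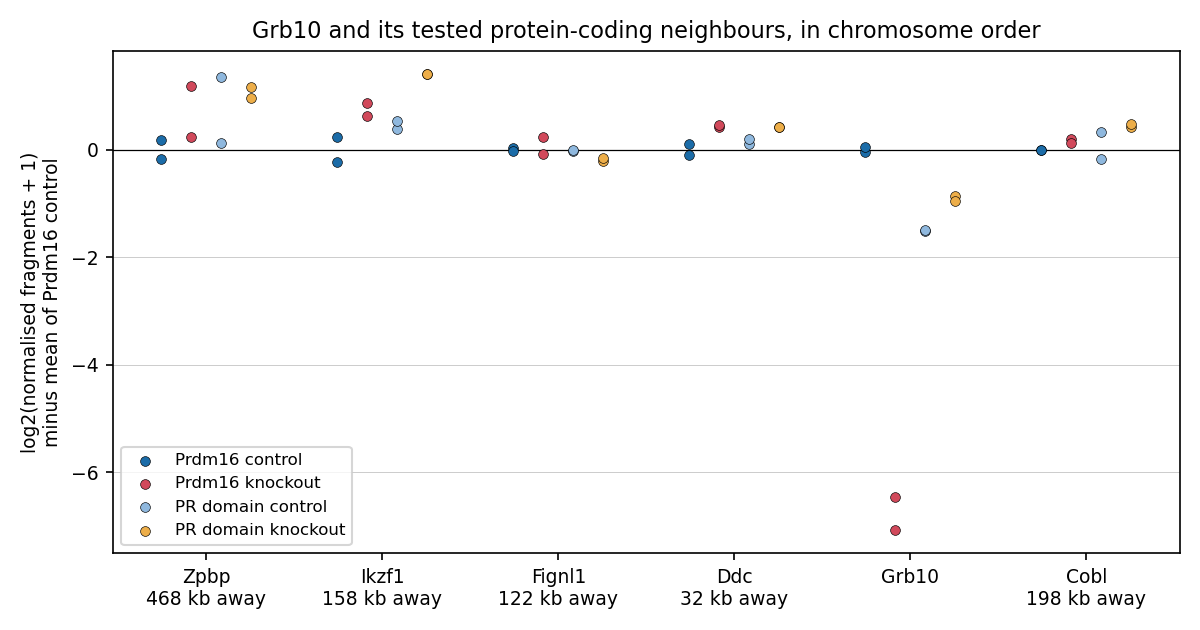
Levels of Grb10 and its tested protein-coding neighbours in chromosome order, as log2(normalised fragments + 1) minus the mean of the Prdm16 control; each point is 1 library. Grb10 alone among the 6 genes drawn lies below -6 in the Prdm16 knockout libraries.

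The 8 loci whose log2 levels followed Grb10 most closely over the 8 libraries were picked from 1212 loci with a single protein-coding name and a log2 range of at least 2. They were Epb41l4a (Pearson r = 0.98), Shh (0.98), AU018091 (0.97), Rspo2 (0.97), Gprin1 (0.96), Ddx3y (0.95), Eif2s3y (0.95) and Kirrel3 (0.95), over 8 libraries that form 4 groups. These values are a description with no test, since a low level in the Prdm16 knockout alone gives a high r. Shh, the secreted morphogen of notochord and floor plate, had levels of 66.8 and 56.4 in the Prdm16 control, 16.1 and 18.7 in its knockout, 50.7 and 49.5 in the control of the PR domain set and 68.2 and 56.2 in the PR domain knockout. The Prdm16 knockout was the lowest group, as for Grb10, but by a far smaller step.

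**Figure D5:**
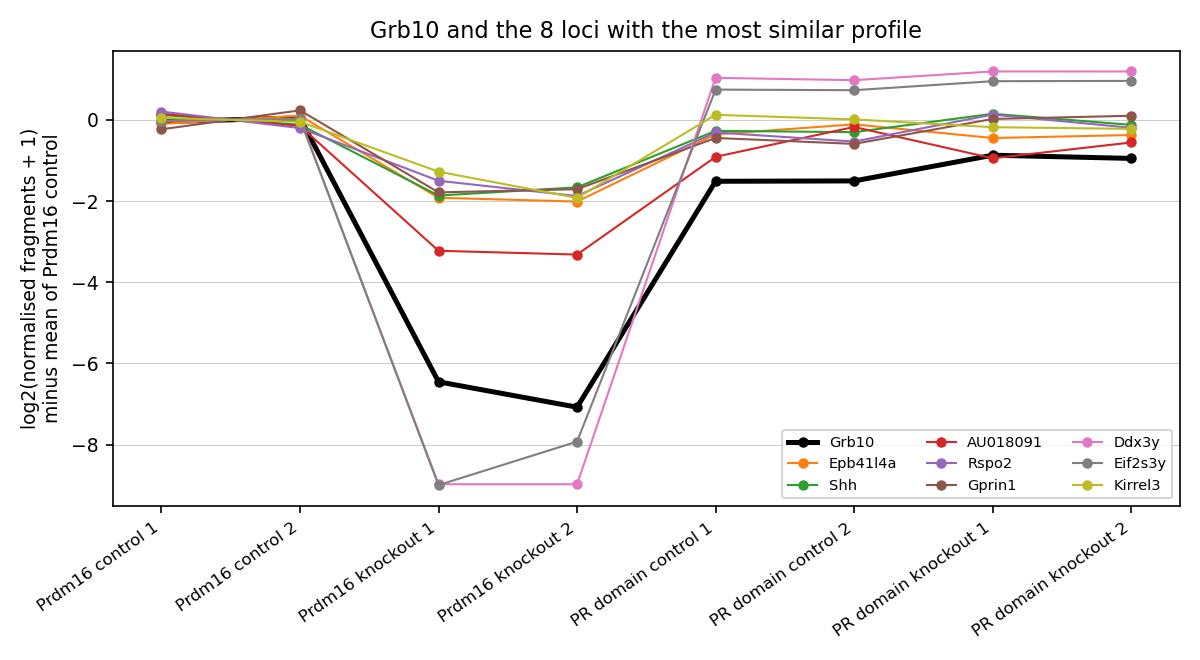
Profiles of Grb10 (thick black line) and the 8 most similar loci over the 8 libraries, as log2(normalised fragments + 1) minus the mean of the Prdm16 control. All are lowest in the Prdm16 knockout; the Y-linked Ddx3y and Eif2s3y go lower than Grb10, and AU018091, Epb41l4a, Shh, Rspo2, Gprin1 and Kirrel3 stay above it.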

How the data were processed

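RNA-seq was measured in 8 libraries of total RNA (Trizol and RNeasy, Illumina TruSeq), grouped by sample titles. The build in the submitters' processing notes is mm10, and the tools are Cufflinks 2.2.1, deepTools, SAMtools 1.5 and TopHat2 2.1.1. The annotation of genes and the strand setting were not given in the sources used here. Deposited signal values are, per the file headers and the values, fragments per locus that the authors divided by 1 size factor per library: within a library 99.996% or more of values were whole multiples of 1 step (tolerance 0.1). The authors also deposited FPKM, used in an alternative only. Unnamed loci (1.88 to 2.53% of fragments) were left out.

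limma 3.58.1 (R 4.3.3, trend) was fitted to log2(value + 1) as 4 group means over 8 libraries and the 16623 loci that reached 10 in 2 or more libraries, with 4 residual and 25.4 prior degrees of freedom. This scale understates changes of low genes. Alternatives were edgeR 4.0.16 (quasi-likelihood) and DESeq2 1.42.0 on recovered fragments, TMM, DESeq2 and total-fragment scaling, FPKM, other pseudocounts and filters, the 4 libraries compared alone, a replicate block and leaving out each library. By edgeR, 6470 loci passed for Prdm16 and 3418 for the PR domain. On simulated data for the Prdm16 knockout over 16623 loci, with 50 loci changed at each size, 11 were recovered at 1.25-fold, 33 at 1.5-fold, 48 at 2-fold and 50 at 4-fold, and 13 of 16423 unchanged loci were called. All changed loci had a mean level of at least 50, and 1 dispersion was set for every locus. In the data 39.1% of loci passed for this knockout, a far larger share than was changed in the simulation. These rates therefore do not give the sensitivity of the real comparison. Replicates differed by more than sampling noise (chi-square per degree of freedom 1.40 to 2.23). Fragments carry no molecular identifiers, so intervals cover counting error only.

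The genes and lists were chosen with earlier results of these data known. Named are all 10 genes, Prdm16, Y-linked genes and Xist. From the pathway list came up to 4 genes per direction and comparison with the smallest adjusted p, and Igf2, Igf2r, Gigyf1, Gigyf2 and Nedd4. Neighbours within 500 kb and the 8 loci of highest r were also named. Other pathway genes, printed for completeness of a list or to give both knockouts, were chosen after their values were seen. Where a gene had several rows, the row with the highest mean was counted. Coordinates are GENCODE M21 (GRCm38), and 52644 of 53680 names matched. Promoters are the 250 bases before RefSeq starts; for Irs4 the part inside an annotated exon was left out. One pathway gene that the rule names is not reported here.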

Additional observations from a re-analysis of the deposited data

Results flagged for a closer look

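For 6 of the 9 genes other than Grb10, the effect of the Prdm16 knockout differed from that of the PR domain knockout by the test of the difference itself. Of all loci, 16.4% passed this test. With DESeq2 3 of the 9 passed, on FPKM 2 and with no filter on low values 4. Over all loci 1179, 199 and 1642 (of 28946 without the filter) passed in the same order, against 2728 of 16623 in the main fit. The calls for Grb14, Insr and Irs2 were each lost when some single library was left out. The difference (effect in the Prdm16 knockout minus effect in the PR domain knockout, log2) was -2.64 for Irs4, -0.87 for Igf1, 0.95 for Grb14, 0.41 for Igfbp5, 0.33 for Irs2 and 0.28 for Insr. Igf1 changed in opposite directions. The wild types of the 2 sets differed at 4 of these 6 genes (Irs2, Irs4, Igf1 and Igfbp5), against 33.0% of all loci. Set and knockout kind cannot be told apart.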

How the results depend on the processing

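Of 830 values of the 9 genes under the alternatives, 747 kept their direction and side of the threshold, 58 lost a call, 1 gained one and 24 changed sign; the cause was not tested. Depth limits Grb14, Irs4 in the PR domain set and the Prdm16 knockout's Grb10, which rest on few fragments. FPKM called 2, 3 and 2 of the genes in the Prdm16 knockout, the PR domain knockout and the difference, 19, 5, 2 and 19 pathway genes (the last between the wild types) and 2244, 582, 199 and 1717 loci in the same order. It gave Grb10 differences of -5.52, 0.79 and -1.66. DESeq2 called 3983, 1797, 1179 and 3388 loci, 23, 17 and 37 pathway genes in the PR domain knockout, the difference and between the wild types, and 3 of the genes for the difference. With no filter 20 pathway genes and 1642 loci passed for the difference. With DESeq2 size factors 54.4% of calls in the PR domain knockout were higher, against 44.2%. With total-fragment scaling 37.0% of those for the difference were, against 52.4%.

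Leaving out 1 library at a time gave 4 to 6, 6 to 8, 4 to 6 and 5 to 6 of the 9 genes in the Prdm16 knockout, the PR domain knockout, the difference and between the wild types. It gave 57 to 69, 23 to 36, 24 to 33 and 43 to 59 pathway genes, and 5028 to 6477, 2180 to 3367, 1950 to 2390 and 4047 to 5675 loci. The Grb10 differences ranged from -7.08 to -6.45, from 0.56 to 0.64 and, between the wild types, from -1.56 to -1.46.

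Signs turned only for values near 0 or, in 2 cases (Grb7 in the PR domain knockout and Gigyf2 between the wild types), on FPKM for values that had passed. On FPKM Grb7 was -0.036 in the PR domain knockout and 0.40 for the difference, Igf1r 0.15 and Gigyf2 0.079 between the wild types, Nedd4 0.011 there and 0.048 in the Prdm16 knockout, and Insr 0.024, Igfbp5 0.0060 and Igf2r -0.020 in the Prdm16 knockout. With TMM, DESeq2 size factors, edgeR and DESeq2, Igf1r between the wild types was 0.020, 0.011, 0.020 and 0.011. Igfbp5 in the Prdm16 knockout was 0.027, 0.015, 0.027 and 0.015, Nedd4 there 0.036, 0.024, 0.036 and 0.024, and Nedd4 between the wild types 0.0091, 0.00055, 0.0091 and 0.00050. With total-fragment scaling Igf2r was -0.032 in the Prdm16 knockout and the second Irs1 row -0.050 for the difference. Over the left-out libraries Igf2r ran from -0.020 to 0.033 and Nedd4 from -0.040 to 0.011 in the Prdm16 knockout, and Igf2r from -0.017 to 0.083 in the PR domain knockout. For the difference Grb7 ran from -0.22 to 0.038, the second Irs1 row from -0.16 to 0.19 and Igf2r from -0.077 to 0.024. Between the wild types Igf1r ran from -0.021 to 0.015, the second Irs1 row from -0.072 to 0.28 and Nedd4 from -0.034 to 0.0069.

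Replicate numbers recur across groups, but same-numbered libraries of a knockout and its own control did not deviate together. Their r was -0.13 between the Prdm16 control and knockout and 0.01 in the PR domain set. Across the sets r was 0.13 between the Prdm16 control and the PR domain knockout and -0.18 between the knockouts. It was 0.01 between the wild types and -0.01 between the Prdm16 knockout and the PR domain control. The cause of these values was not tested. With the number as a replicate block, 6, 8, 6 and 6 of the 9 genes, 69, 35, 34 and 55 pathway genes and 6438, 3149, 2686 and 5442 loci passed. With the numbers crossed in the Prdm16 knockout, an alternative added after seeing the data, the counts were 6, 8, 6 and 6 genes, 70, 36, 36 and 56 pathway genes and 6582, 3274, 2820 and 5556 loci.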
